A study of Mus musculus with 4 samples.

Results

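Ceramide and skin barrier lipid genes are 35 genes, listed by name, that make, convert, release or break down ceramide, or that build acylceramide and carry it into the lipid layer around cornified cells. Of the 35, 34 had a probe set of their own on the array, and all 34 lay above the filter on dim probe sets; they were read among 19938 genes with such a probe set. Cers1, a ceramide synthase, was represented by 1 probe set that it shared with Gdf1, and its level was not analysed here. Acer2 had 2 probe sets, of which the one with the higher mean stands for the gene.

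The RNA was from back skin, taken whole, of 22-day-old mice on a C57Bl6 background in telogen, the quiescent stage of the hair follicle, at ZT22 (22 hours after lights on, in cycles of 12 hours of light and 12 of dark). The 2 heterozygous mice had 1 mutant and 1 intact allele of Bmal1 (gene symbol Arntl), the clock transcription factor that binds E-box elements together with CLOCK. The 2 knockout mice had lost both alleles in the germline, so that every cell type of the skin lacked the gene; the design text describes the replicates as littermates, and all 4 mice carried at least 1 mutant allele. Each mouse gave 1 Affymetrix whole-transcript array with values on a log2 scale, and every difference below is knockout minus heterozygous, with n = 2 per genotype.

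Ceramides are built from serine and a fatty acyl-CoA. Serine palmitoyltransferase makes the long chain base, ceramide synthases attach a second fatty acid whose length depends on the synthase, and desaturases and hydroxylases finish the molecule. In the upper epidermis ceramides with very long omega-hydroxylated acyl chains are esterified with linoleic acid, packed as glucosylceramide into lamellar bodies, secreted and partly bound to the cornified envelope, where they hold back water. Sebaceous glands, which open into the hair follicle, make a separate mixture of lipids that is secreted onto the skin surface.

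Signal for Arntl was 8.90 and 9.08 in heterozygotes against 8.29 and 8.15 in knockouts, a difference of -0.76 (SE 0.12, limma adjusted p = 0.102); which part of the transcript its probes cover, inside or outside the deletion, is not known here. Heterozygous array 2 and knockout array 1 were the least alike, with a correlation of 0.946. Heterozygous array 2 correlated at 0.966 with heterozygous array 1 and at 0.975 with knockout array 2, and the other 3 arrays with one another at 0.975 to 0.98. Heterozygous array 2 held the lowest value of 24 of the 34 members (70.6%), against 39.4% of all 17557 tested probe sets. Results are therefore also given without it. Keratinocyte markers were read well above the filter value of 6.66 in every array, with Krt14 (basal cells) from 11.46 to 12.13, Krt10 (suprabasal cells) from 13.29 to 13.46 and Lor (granular cells) from 12.37 to 12.66.

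Because BMAL1 acts through E-boxes, the RefSeq promoter windows of the members are shown first (GRCm38.p6, 250 bases before and 50 after an annotated start; 31 of the 35 members had at least 1 window, 47 windows in all, and Fa2h, Smpd3, Asah1 and Aloxe3 had none). The E-box CACGTG, searched on both strands, was found in 7 of the 47 windows (14.9%) and in 7.15% of all 32851 windows. Counted by gene, 6 of 31 members had it in at least 1 window (19.4%), against 8.09% of all genes in the table. They were Degs1, Cers6, Smpd2, Cers2 (in 1 of its alternative starts), Sgms2 (likewise) and Sphk1 (in overlapping windows of neighbouring starts). In that order their differences were 0.47, 0.11, 0.23, 0.13, 0.07 and 0.06. A link between these sites and the differences was not tested. The stretches around the E-box of the members with a difference above 0.1 are printed 5′ to 3′ with the E-box in capitals and 21 bases on either side:
Degs1 (chr1:182282212-182282259, minus strand): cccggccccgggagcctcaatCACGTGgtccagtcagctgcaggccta
Cers6 (chr2:68861398-68861445, plus strand): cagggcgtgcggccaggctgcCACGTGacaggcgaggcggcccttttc
Cers2 (chr3:95315040-95315087, plus strand): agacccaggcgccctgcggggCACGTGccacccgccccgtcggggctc
Smpd2 (chr10:41490508-41490555, minus strand): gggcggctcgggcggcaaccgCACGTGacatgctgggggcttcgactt

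In Degs1 the E-box lay 43 bases before the annotated start, in Cers6 22, in Cers2 129 and in Smpd2 194. The other motifs searched on both strands were the E′-box CACGTT (in Abca12, 2.13% of member windows against 4.68% of all windows; it differs from the E-box in its last letter, so that a site counts for one of them only), the D-box TTATGNAA (in Sptlc3, 2.13% against 3.38%), the ROR element core TAGGTCA (in no member window, against 2.61% of all windows) and the AP-1 site TGACTCA (in 8 of 47 member windows, 17.0%, against 5.2% of all windows; the genes were Acer3, Asah2, Psap, Sgms1, Sgms2 and Sphk1). None of these motifs was found in the windows of the 3 members with the largest differences in size, Cers4, Slc27a4 and Sgpl1, nor in that of Alox12b, the member with the lowest difference. Their windows are given in full, all in lower case because no searched motif was found:
Cers4 (chr8:4493155-4493454, plus strand): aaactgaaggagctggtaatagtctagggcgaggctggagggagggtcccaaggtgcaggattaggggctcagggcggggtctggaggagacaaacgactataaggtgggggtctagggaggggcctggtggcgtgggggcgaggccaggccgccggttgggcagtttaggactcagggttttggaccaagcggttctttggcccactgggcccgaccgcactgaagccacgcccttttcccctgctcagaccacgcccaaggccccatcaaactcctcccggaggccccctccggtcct
Slc27a4 (chr2:29802384-29802683, plus strand): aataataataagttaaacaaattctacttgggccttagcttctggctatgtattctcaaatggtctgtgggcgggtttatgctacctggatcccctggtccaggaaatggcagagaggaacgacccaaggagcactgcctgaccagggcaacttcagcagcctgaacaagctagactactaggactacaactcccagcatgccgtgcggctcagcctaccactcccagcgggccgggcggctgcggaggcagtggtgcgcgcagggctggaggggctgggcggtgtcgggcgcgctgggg
Sgpl1 (chr10:61147635-61147934, minus strand): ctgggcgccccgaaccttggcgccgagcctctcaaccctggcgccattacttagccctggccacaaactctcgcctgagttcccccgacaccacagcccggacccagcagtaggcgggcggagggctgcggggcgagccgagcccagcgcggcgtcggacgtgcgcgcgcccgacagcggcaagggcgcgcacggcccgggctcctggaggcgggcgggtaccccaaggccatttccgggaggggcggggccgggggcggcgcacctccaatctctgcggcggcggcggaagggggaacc
Alox12b (chr11:69156822-69157121, plus strand): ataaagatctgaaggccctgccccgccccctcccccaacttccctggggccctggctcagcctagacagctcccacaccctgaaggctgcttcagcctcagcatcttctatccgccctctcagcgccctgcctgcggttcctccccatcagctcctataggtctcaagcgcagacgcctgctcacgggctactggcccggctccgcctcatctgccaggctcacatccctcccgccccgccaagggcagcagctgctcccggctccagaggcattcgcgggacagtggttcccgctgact

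Over the whole group, ceramide genes read higher in knockout skin more often than lower, by small amounts, and none passed the test. Of 34 members, 28 had a higher knockout mean and 6 a lower one, with a median difference of 0.13 against 0.01 over all tested probe sets, of which 52.6% were higher. No member passed limma's test at an adjusted p under 0.05, as no probe set of the array did (0 of 17557, 0%); adjusted p of the members ran from 0.16 to 0.973. At an unadjusted p under 0.05 there were 9 members, 7 higher (20.6%) and 2 lower (5.88%), where 9.64% of all tested probe sets were higher and 5.82% lower. In the fit with the mouse number as a replicate block 3 members passed the threshold, as did 7.45% of the tested probe sets; with 1 probe set per gene 2 passed, against 2.58%. With probe sets of 1 gene only none did (smallest adjusted p 0.051, Sgpl1; 10 at an unadjusted p under 0.05, as 17.9% of the features), where 1.98% of the features passed. Both knockout arrays lay above the heterozygous range for 15 members (44.1%, against 26.9% of all tested probe sets) and below it for 4 (11.8%, against 22.4%).

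Much of this shift came with heterozygous array 2. Without it the members' median was 0.05 (all tested probe sets -0.01), 20 were higher and 14 lower, and 5 reached an unadjusted p under 0.05 (11.6% of all tested probe sets did). With heterozygous array 1 left out instead, the median was 0.22 and 12 members reached that p, against 19.4% of all tested probe sets. Leaving out knockout array 1 or 2 gave 4 members in either case, against 6.56% and 10.1%. With the values as deposited, or after median centring, the 2 lower members no longer reached it: the split was 10 higher and 0 lower in both. Of all tested probe sets 20.8% reached that p as deposited (15.1% higher, 5.7% lower) and 19.4% after median centring (15.4% higher, 4.01% lower).

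**Figure D1:**
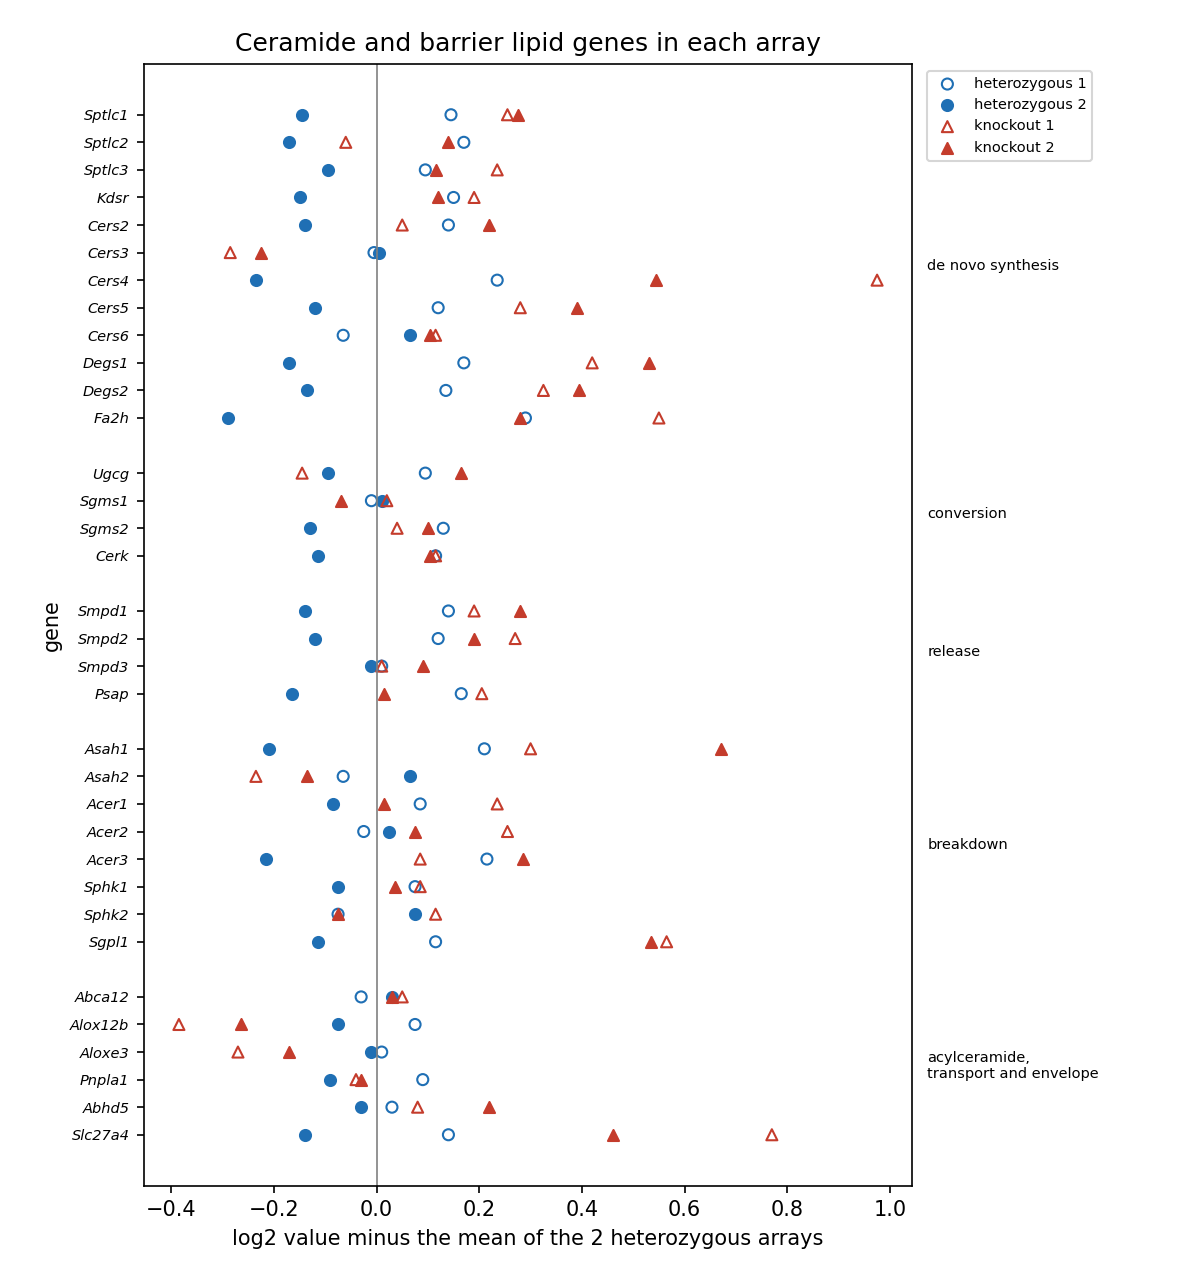
Log2 value of each of the 34 members in each array, minus the mean of the 2 heterozygous arrays (vertical line at 0), with heterozygous arrays as circles and knockout arrays as triangles, ordered by role. Heterozygous array 2 held the lowest value of 24 members, and Cers4, Slc27a4 and Sgpl1 had both knockout arrays to the right of both heterozygous arrays.

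Among the genes of de novo synthesis, 11 of 12 members with a probe set read higher in the knockout, with a median of 0.22 (0.12 without heterozygous array 2), and the members furthest apart were a pair of ceramide synthases that went in opposite directions. At an unadjusted p under 0.05 there were 4 higher (33.3% of the 12, against 9.64% of all tested probe sets) and 1 lower (8.33%, against 5.82%). Without heterozygous array 2, 9 of the 12 were higher and 3 lower. The median was 0.25 without knockout array 1, 0.24 without knockout array 2 and 0.36 without heterozygous array 1.

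The genes of the first steps had small differences. Serine palmitoyltransferase, the rate-setting enzyme, is built from Sptlc1 with Sptlc2 or Sptlc3, and these differed by 0.26 (SE 0.13), 0.04 (SE 0.15) and 0.17 (SE 0.11). Both knockout arrays lay above the heterozygous range for Sptlc1 and Sptlc3 and overlapped it for Sptlc2, whose sign turned without heterozygous array 2 (-0.13) and without knockout array 2 (-0.057). Kdsr, the reductase that follows, differed by 0.16 (SE 0.13) and overlapped.

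The ceramide synthases did not move together. Cers4, which uses long and very long acyl chains and whose loss in mice causes hair loss and altered sebum, read 11.03 and 10.56 in heterozygotes against 11.77 and 11.34 in knockouts. Both knockout values exceeded both heterozygous values, although the arrays of each genotype lay over 0.4 apart. The knockout mean was 1.69 times the heterozygous mean, which is 0.75 higher on the log2 scale (SE 0.20, unadjusted p = 0.00962, adjusted p = 0.203), the largest among the members, and it ran from 0.51 to 0.99 with 1 array left out. Its adjusted p was 0.0035 in a fit that takes the mouse number as a replicate block. In that fit 7.45% of all tested probe sets passed, and the labels do not show that the numbers pair the mice.

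Cers3 is the synthase that attaches ultra-long acyl chains to make the ceramides of the permeability barrier, and mice without it die of water loss. It read 10.10 and 10.11 in heterozygotes against 9.82 and 9.88 in knockouts, so that the groups did not overlap and the arrays of each genotype were close. The difference was -0.25 (SE 0.10, 0.840 of the heterozygous mean, unadjusted p = 0.039, adjusted p = 0.301), and it ran from -0.28 to -0.22 with 1 array left out. It was -0.10 at its smallest in size over all other settings.

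Cers5, a synthase for palmitoyl ceramides, read 11.75 and 11.51 in heterozygotes against 11.91 and 12.02 in knockouts, which lay above them. Its difference was 0.34 (SE 0.11, adjusted p = 0.264), or 0.21 without heterozygous array 2. Cers2, which makes very long chain ceramides in many tissues, differed by 0.13 (SE 0.13) and overlapped, and Cers6 by 0.11 (SE 0.10) with the knockout arrays just above the heterozygous range.

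The enzymes that finish the ceramide base all read higher. Degs1, the desaturase that turns dihydroceramide into ceramide, read 11.03 and 10.69 in heterozygotes against 11.28 and 11.39 in knockouts, with no overlap. It differed by 0.47 (SE 0.14, 1.39-fold, unadjusted p = 0.012, adjusted p = 0.222), or 0.30 without heterozygous array 2. Degs2, its homologue that hydroxylates the base to give phytoceramides, read 7.71 and 7.44 in heterozygotes against 7.90 and 7.97 in knockouts. These did not overlap either, with a difference of 0.36 (SE 0.13, adjusted p = 0.288; 0.23 without heterozygous array 2). Fa2h, which hydroxylates the fatty acid and in mice acts in sebaceous glands, read 11.58 and 11.00 in heterozygotes against 11.84 and 11.57 in knockouts. The groups overlapped, and its difference of 0.42 (SE 0.20, adjusted p = 0.385) was 0.13 when heterozygous array 2 was left out and was 0.70 when heterozygous array 1 was.

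The genes that convert ceramide onward had differences near 0. Ugcg, which makes the glucosylceramide stored in lamellar bodies, differed by 0.01 (95% interval -0.33 to 0.35). The sphingomyelin synthases Sgms1 and Sgms2 differed by -0.02 (95% interval -0.26 to 0.22) and 0.07 (95% interval -0.24 to 0.37), and Cerk, ceramide kinase, by 0.11 (95% interval -0.17 to 0.39). All 4 overlapped between genotypes. Of all tested probe sets, 26.9% lay above the heterozygous range in both knockout arrays and 22.4% below it. The intervals are from the limma fit. They overlap those of Degs1 (0.14 to 0.80) and Fa2h (-0.075 to 0.91) and, except for Sgms1, that of Cers4 (0.26 to 1.25).

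The genes that release ceramide from stored lipids were all slightly higher, and none reached an unadjusted p under 0.05 (15.5% of all tested probe sets did). The sphingomyelinases are Smpd1, the acid lysosomal form, and Smpd2 and Smpd3, neutral forms. Smpd1 differed by 0.23 (SE 0.12), Smpd2 by 0.23 (SE 0.12) and Smpd3 by 0.05 (SE 0.10). Each had both knockout arrays above the heterozygous range, as did 26.9% of all tested probe sets. For Smpd3 the margin was below the rounding, with 8.38 in heterozygous array 1 and in knockout array 1. Psap, the precursor of the saposins that help lysosomal enzymes reach glucosylceramide and other lipids, differed by 0.11 (SE 0.14) and overlapped. Its sign turned without heterozygous array 2 (-0.051).

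Among the genes of breakdown, the lysosomal ceramidase and the enzyme of the last step read higher, while the other genes differed by less than 0.2. Sgpl1, the lyase that removes sphingosine-1-phosphate irreversibly, read 9.91 and 9.68 in heterozygotes against 10.36 and 10.33 in knockouts. The knockout values lay close together and well above both heterozygous values. Its difference of 0.55 (SE 0.11, 1.46-fold) had the smallest p of the members (unadjusted p = 0.0027, adjusted p = 0.16) and ran from 0.44 to 0.66 with 1 array left out. Its adjusted p was 0.021 with the replicate block and 0.040 with 1 probe set per gene, where 7.45% and 2.58% of all features passed.

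Asah1, the acid ceramidase, read 9.40 and 8.98 in heterozygotes against 9.49 and 9.86 in knockouts, with no overlap but with wide spread in both groups. It differed by 0.49 (SE 0.19, 1.4-fold, unadjusted p = 0.039, adjusted p = 0.301), by 0.28 without heterozygous array 2 and by 0.31 without knockout array 2. Asah2, the neutral ceramidase, went the other way, with 10.17 and 10.30 in heterozygotes against 10.00 and 10.10 in knockouts. Its difference was -0.18 (SE 0.10, adjusted p = 0.45).

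The alkaline ceramidases Acer1, Acer2 and Acer3, of which Acer1 acts in differentiated epidermis, differed by 0.12, 0.17 and 0.19. Of these, Acer2 had both knockout arrays above the heterozygous range, and its second probe set gave 0.22 (SE 0.17), so that its probe sets agree in sign. The sphingosine kinases Sphk1 and Sphk2, which make the substrate of the lyase, differed by 0.06 (SE 0.11) and 0.02 (SE 0.12) and overlapped.

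**Figure D2:**
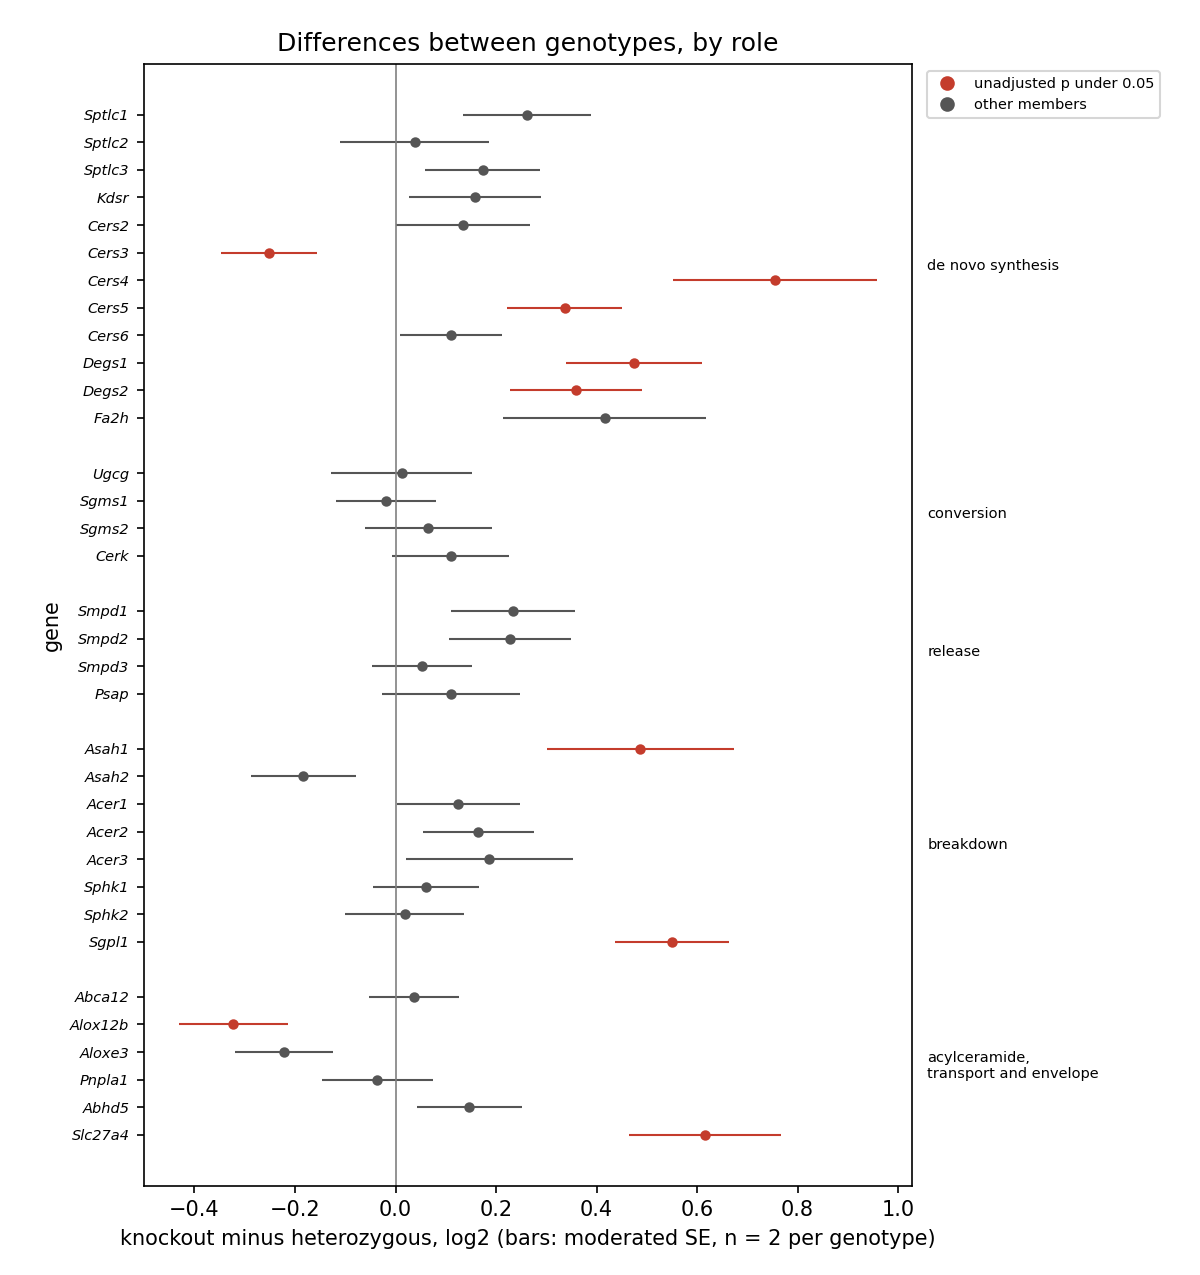
Difference between knockout and heterozygous arrays on the log2 scale for each member, grouped by role, with bars for limma's moderated SE (n = 2 per genotype) and red points for the 9 members at an unadjusted p under 0.05. The largest difference was 0.75 (Cers4) and the lowest -0.32 (Alox12b), and the conversion genes lay between -0.02 and 0.11.

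Among the genes of acylceramide, its transport and the cornified envelope, the fatty acid transporter was higher and the lipoxygenases were lower in both knockout arrays, while the lamellar body transporter differed by 0.04. Over the 6 members the median was 0.00, with 3 higher and 3 lower. Slc27a4 encodes FATP4, which takes up fatty acids and activates very long chains to acyl-CoA, and mice without it are born with a defective barrier. It read 9.80 and 9.52 in heterozygotes against 10.43 and 10.12 in knockouts, which lay above them. The difference was 0.62 (SE 0.15, 1.53-fold, unadjusted p = 0.0064, adjusted p = 0.186), and ran from 0.46 to 0.76 with 1 array left out. Its adjusted p was 0.012 with the replicate block and 0.049 with 1 probe set per gene, where 7.45% and 2.58% of all features passed.

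Alox12b and Aloxe3 are neighbours on chromosome 11 and encode lipoxygenases that act one after the other on the linoleate of acylceramide, a step needed to bind it to the cornified envelope. Alox12b read 10.46 and 10.31 in heterozygotes against 10.00 and 10.12 in knockouts, which lay below them. Its difference was -0.32 (SE 0.11, 0.80 of the heterozygous mean, unadjusted p = 0.024, adjusted p = 0.261), from -0.40 to -0.25 with 1 array left out. Aloxe3 read 10.27 and 10.25 in heterozygotes against 9.99 and 10.09 in knockouts, again with no overlap, and differed by -0.22 (SE 0.10, adjusted p = 0.349). With Cers3 and Asah2 these were the 4 members whose difference was negative in all settings run, down to -0.18 for Alox12b and -0.07 for Aloxe3 at their smallest in size.

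The other genes of the barrier lipids differed by less. Abca12, the lipid transporter of the lamellar body, read 11.17 and 11.23 in heterozygotes against 11.25 and 11.23 in knockouts, a difference of 0.04 (95% interval -0.18 to 0.26). Pnpla1, the transacylase that joins linoleate to the omega-hydroxyceramide, differed by -0.04 (95% interval -0.30 to 0.23), and its sign turned with the values as deposited. Abhd5, the activator of Pnpla1 and of triglyceride lipase, differed by 0.15 (SE 0.10), with both knockout arrays above the heterozygous range.

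**Figure D3:**
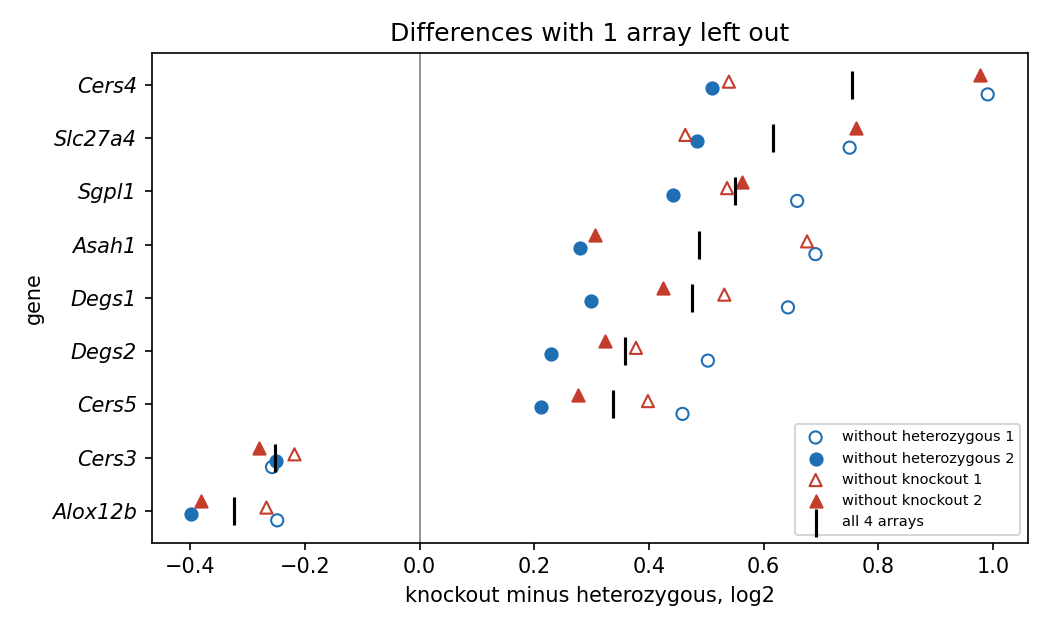
Difference between genotypes on the log2 scale for the 9 members at an unadjusted p under 0.05, with all 4 arrays (black bar) and with each array left out in turn (symbols). In all 9, both knockout arrays lay on the same side of both heterozygous arrays. Leaving out an array could therefore hardly turn a sign, and the kept signs do not test these differences. Without heterozygous array 2 Asah1 was at 0.28, Degs1 at 0.30, Degs2 at 0.23 and Cers5 at 0.21.

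Other genes of the pathway, outside the 35 members, were read from lists of regulators, transfer proteins and fatty acid enzymes. These lists, like the members, were chosen with earlier results of these data known. Of 34 listed genes 31 were tested; 22 were higher and 9 lower, with a median of 0.14, and 0 passed at an adjusted p under 0.05. At an unadjusted p under 0.05, 9 were higher (29%, against 9.64% of all tested probe sets) and 0 lower (against 5.82%). Without heterozygous array 2 the median was 0.10, with 21 higher and 10 lower. It was 0.18 without heterozygous array 1, 0.14 without knockout array 1 and 0.17 without knockout array 2. The enzymes of very long chain and omega-hydroxy fatty acids and of the envelope made up 19 of the 31 tested genes. They held 7 of the 9 at an unadjusted p under 0.05 with all arrays. That was 36.8% of the 19, where 9.64% of all tested probe sets were higher at that p. Elovl7 and Elovl4, elongases, differed by 0.61 (SE 0.12) and 0.43 (SE 0.13), and Acsl4, an acyl-CoA synthetase, by 0.51 (SE 0.11). Cyp4f39, the mouse counterpart of the human omega-hydroxylase of acylceramide fatty acids, differed by 0.49 (SE 0.13). Hacd2 and Hacd1, dehydratases of the elongation cycle, differed by 0.38 (SE 0.12) and 0.37 (SE 0.15), and Sult2b1, a cholesterol sulfotransferase, by 0.30 (SE 0.11).

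The other envelope genes of that list lay on both sides of 0. Ephx3, an epoxide hydrolase that acts after the lipoxygenases, differed by 0.22 (SE 0.14) and Alox12e, an epidermal lipoxygenase, by -0.06 (SE 0.13). Nipal4 differed by 0.03 (SE 0.10), Tgm1, the transglutaminase that crosslinks the envelope, by -0.03 (SE 0.11), Sdr9c7, a dehydrogenase of the same route, by -0.15 (SE 0.11), and Lipn, an epidermal lipase, by -0.18 (SE 0.12). In the other lists, Sgpp2, a sphingosine-1-phosphate phosphatase, was higher by 0.61 (SE 0.14, adjusted p = 0.174), and its homologue Sgpp1 differed by 0.14 (SE 0.10). The negative regulators of serine palmitoyltransferase differed in both directions, Ormdl1 by 0.36 (SE 0.11), Ormdl2 by -0.11 (SE 0.10) and Ormdl3 by -0.13 (SE 0.10).

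Markers of sebocytes were higher in the same arrays as these genes. In whole skin, a change in the number of cells of a type and a change in RNA per cell cannot be told apart. All 8 tested sebocyte markers of 9 listed were higher, with a median of 0.63 (0.40 without heterozygous array 2), and 7 reached an unadjusted p under 0.05 (87.5%; the share over the tested array was 9.64% in that direction). That count was 3 without knockout array 1 and 6 to 8 with another array left out. Their summed level on the linear scale was 15200 to 20200 in the heterozygous arrays and 26400 to 27200 in the knockout arrays. Awat1, a wax ester acyltransferase of the sebaceous gland, differed by 1.12 (SE 0.17) and Elovl3, an elongase of the gland, by 0.82 (SE 0.11). Heterozygous array 2 was the lowest array for all 8. It was also the lowest for 80% of 5 adipocyte, 75% of 4 suprabasal and 66.7% of 6 granular markers, and for the 1 blood marker. The share was 42.9% of muscle markers, 40% of basal, of macrophage and of hair shaft and root sheath markers, and 0% of endothelial ones. It was 39.4% of all tested probe sets and 70.6% of the members (24 of the 34). Whether sebaceous cells account for the higher values of these members was not tested.

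Keratinocyte markers had medians nearer to 0. Of the granular markers, 6 of 7 were tested, with a median of 0.09, from -0.18 (Hrnr) to 0.43 (Rptn, the 1 of them at an unadjusted p under 0.05), and with summed levels of 18300 to 18400 in the heterozygous and 17000 to 19300 in the knockout arrays. Suprabasal markers had a median of 0.05 over 4 of 6 tested and basal markers one of -0.06 over 5 of 5. Summed suprabasal levels were 23400 to 27900 and 24900 to 25900, and summed basal levels 12300 to 17000 and 14000 to 17000. The summed levels of all 3 lists overlapped between genotypes. Among single markers, Itga6 (basal) and Krtdap (suprabasal) lay below the heterozygous range in both knockout arrays, with differences of -0.28 and -0.17. Sbsn (suprabasal, 0.10) and the granular markers Lor (0.16), Rptn (0.43) and Casp14 (0.23) lay above it in both. Whether keratinocyte content accounts for the lower values of Cers3, Alox12b and Aloxe3 was not tested. Skeletal muscle markers were higher for 7 of 7, with a median of 0.50 and summed levels of 34100 to 34200 against 44900 to 51000, and their part in these results was not tested. Summed adipocyte levels were 7470 to 11800 and 10400 to 12300, and macrophage levels 2390 to 2920 and 2210 to 2460. Endothelial levels were 1480 to 1570 and 1310 to 1860, those of hair shaft and root sheath genes 744 to 767 and 764 to 893, and the 1 blood marker read, Alas2, 220 to 337 and 263 to 302.

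**Figure D4:**
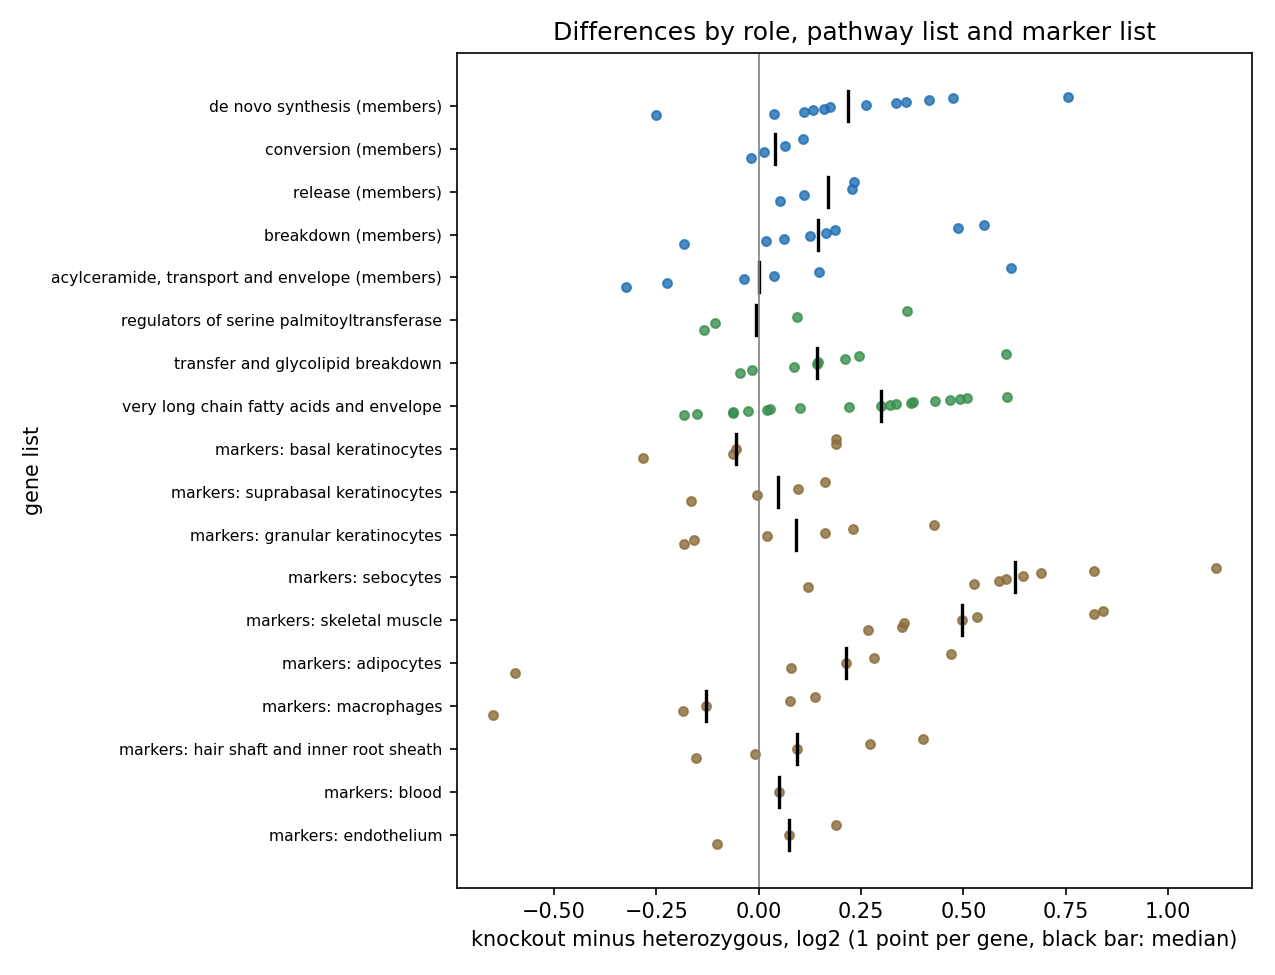
Difference between genotypes on the log2 scale for each tested gene, by role of the members (blue), by list of other pathway genes (green) and by list of cell type markers (brown), with a black bar at each median. Sebocyte markers had a median of 0.63 and muscle markers one of 0.50, while keratinocyte markers lay around 0 and the de novo synthesis members had a median of 0.22.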

How the data were processed

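Whole-transcript arrays of back skin from 2 heterozygous and 2 knockout mice were compared. Per the submitters' processing notes, the authors used Affymetrix Expression Console 1.1.1 and PLIER 2.0. The deposited values (35557 probe sets) were taken as log2 from their range, 2.54 to 14.9; scale, background step and genome build: not given in the sources used here. Column quartiles differed by up to 0.34, so the arrays were quantile normalized. The platform annotation gives 1 gene for 21789 probe sets, several for 1621 and none for 12147, and 21698 symbols were updated by gene identifier (GRCm38.p6). Tested were the 17557 probe sets with 1 or several genes above the 25th percentile of means, with limma 3.58.1 in R 4.3.3 (eBayes with trend, 2 residual degrees of freedom) and Benjamini-Hochberg adjustment over all of them. SEs and 95% intervals are limma's moderated ones. Each member is read from its own probe set with the highest mean. The rule for named genes was to account for all 35 members, giving every array for those at an unadjusted p under 0.05 or with no overlap and a difference of at least 0.4; Fa2h, Abca12, Asah2 and Aloxe3 were given in full after their values were seen. Members, lists and tests were chosen with earlier results of these data known. The number of arrays limits the precision. Each p-value sets a difference against the spread between these mice, moderated by the variances of all tested probe sets (4.12 prior degrees of freedom). The fit was tested on simulated data. Alternatives were median centring, deposited values, offsets of 16 and 64, no filter, the 50th percentile, no trend, a robust prior, the replicate block, each array left out, all probe sets, 1 probe set per gene and probe set means; a fit on probe sets with 1 gene only was added after the data were seen. Same-numbered deviations correlated at 0.624 over probe sets, but the labels do not say that a number marks a litter.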

Additional observations from a re-analysis of the deposited data

How the results depend on the processing

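The count of members at an adjusted p under 0.05, 0 by limma with 9 at an unadjusted p, was 3 with the mouse number as a replicate block (Cers4, adjusted p = 0.0035; Slc27a4, 0.012; Sgpl1, 0.021) and 2 with 1 probe set per gene (Sgpl1, 0.040; Slc27a4, 0.049), where 7.45% and 2.58% of all features passed. It was 0 in the other settings, including the added fit on probe sets with 1 gene only, in which 323 features (1.98%) passed. The labels do not show that the numbers pair the mice, and with 2 pairs the data cannot. With 1 array left out, members at an unadjusted p under 0.05 ran from 4 (without knockout array 1 and without knockout array 2) through 5 (without heterozygous array 2) to 12, and the median from 0.05 to 0.22. The median was 0.27 after median centring, where that of all probe sets was 0.09, and 0.23 as deposited. Signs turned for 11 members, all within 0.19 of 0 with all arrays. After median centring Sgms1 was 0.12 and Pnpla1 0.11, and as deposited 0.080 and 0.071. Over the fits with 1 array left out, Sptlc2 ran from -0.13 to 0.21, Cers2 from -0.0066 to 0.27, Ugcg from -0.14 to 0.16, Sgms1 from -0.068 to 0.026, Sgms2 from -0.066 to 0.20, Cerk from -0.0042 to 0.23, Psap from -0.051 to 0.28, Acer3 from -0.030 to 0.40, Sphk1 from -0.011 to 0.13, Sphk2 from -0.077 to 0.12 and Pnpla1 from -0.13 to 0.057. Of these, 8 turned without heterozygous array 2. The cause of these changes was not tested.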
